A study of Mus musculus with 28 samples.

Results

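The genes of steroid hormone synthesis in the gonad were followed through the Csmd1 mouse transcriptomes: Star, Cyp11a1, Hsd3b1, Hsd3b6, Cyp17a1, Hsd17b3, Cyp19a1, Insl3 and Lhcgr. These 9 members were listed by name, and the RPKM (reads scaled for exon length and for the mapped reads of the library) of their 14 transcripts were summed per gene, out of 37206 genes in the deposited matrix. The matrix holds 28 libraries of polyadenylated RNA from 13 mice: 7 whole testes (2 wildtype, 5 knockout), 20 germ cell fractions sorted from dissociated testes (9 wildtype, 11 knockout) and 1 wildtype ovary. The sort used DNA content and chromatin staining with Hoechst to make 4 gates, labelled R5 for spermatogonia, R7 for primary spermatocytes, R6 for secondary spermatocytes and R4 for spermatids. Knockout mice are Csmd1 null in every cell, in whom a reporter and selection cassette stands in place of exon 1 and some of intron 1. They carry no Cre, and no animal was treated. The labels call the strain C57BL/6 and the methods describe a mixed 129SvEvBrd and C57BL/6 background. The labels give no ages. The study describes whole testes of both sexually immature and sexually mature males and a sort of mature males, and its sample list gives 40 days for mice 178 and 351, but the ages of the other mice used here were not given in the sources used here. Age was therefore not a term of any comparison below, and groups may pool ages. In a sorted mouse 1 testis, which the methods describe as dissociated, gave the whole testis RNA and the other went to the sort. Libraries with the same mouse number thus come from the same animal, and no library is described as a pool.

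Steroid hormones are made from cholesterol. STAR brings cholesterol into the mitochondrion, CYP11A1 cuts its side chain to give pregnenolone, HSD3B enzymes convert pregnenolone to progesterone, CYP17A1 makes androgen precursors, HSD17B3 completes testosterone and CYP19A1 (aromatase) turns androgens into estrogens. In the testis these steps take place in Leydig cells of the interstitium, which carry the luteinizing hormone receptor LHCGR and secrete the peptide INSL3, and adult mouse Leydig cells use Hsd3b6 beside Hsd3b1; in the ovary they are divided among theca, granulosa and luteal cells. In the testis aromatase is known in germ cells as well as in Leydig cells.

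The Hsd3b genes are close paralogues that lie side by side on mouse chromosome 3, and the main transcripts of Hsd3b1 and Hsd3b6 are identical at 77.4% of aligned positions. Hsd3b1 (ENSMUSG00000027871) spans chr3:98852194-98859794 on the minus strand of GRCm38 and Hsd3b6 (ENSMUSG00000027869) spans chr3:98805504-98814443 on the same strand. Their promoters are shown because ovary and testis differ most between these paralogues, and that of Insl3 (ENSMUSG00000079019, chr8:71689214-71690575, plus strand) because it lies inside the overlapping gene Jak3. Each line gives the 250 bases 5′ of the transcription start, from RefSeq on GRCm38.p6.
Hsd3b1, chr3:98859795-98860044, minus strand: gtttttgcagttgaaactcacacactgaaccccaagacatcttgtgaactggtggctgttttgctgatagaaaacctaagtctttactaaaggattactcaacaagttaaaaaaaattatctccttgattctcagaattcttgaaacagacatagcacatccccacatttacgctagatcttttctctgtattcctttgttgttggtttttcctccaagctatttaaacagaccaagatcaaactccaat
Hsd3b6, chr3:98814444-98814693, minus strand: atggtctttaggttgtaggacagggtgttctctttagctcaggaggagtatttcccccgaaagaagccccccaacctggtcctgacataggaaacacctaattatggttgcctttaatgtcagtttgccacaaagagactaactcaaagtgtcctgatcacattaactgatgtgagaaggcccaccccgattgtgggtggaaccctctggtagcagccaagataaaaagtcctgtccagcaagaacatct
Insl3, chr8:71689002-71689251, plus strand: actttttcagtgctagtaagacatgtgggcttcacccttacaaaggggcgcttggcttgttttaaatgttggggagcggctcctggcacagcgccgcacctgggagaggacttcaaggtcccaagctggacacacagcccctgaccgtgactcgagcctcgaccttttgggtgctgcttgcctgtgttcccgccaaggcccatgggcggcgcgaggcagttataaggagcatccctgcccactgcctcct
RefSeq promoters were matched for 7 of the 9 members, as 10 windows. The motif CAAGGNCA, bound by the steroidogenic regulator NR5A1, was searched on both strands and would have been set in capitals. It was found in 0 of these 10 windows and in 5.53% of 32851 promoter windows of the same length.

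Star (chromosome 8, 25806555 to 25815982), Cyp11a1 (chromosome 9, 58006411 to 58027023), Cyp19a1 (chromosome 9, 54165937 to 54268110), Hsd17b3 (chromosome 13, 64058266 to 64089230), Lhcgr (chromosome 17, 88716481 to 88791990) and Cyp17a1 (chromosome 19, 46667165 to 46673172) lie apart from each other on the genome. RPKM sums count shared reads more than once where a gene has several transcript rows, by 2.17 times for Cyp17a1 (3 rows, 2 of them without a coding annotation) and by 1.88 to 2.07 times for Hsd3b1, Hsd3b6 and Hsd17b3. Levels are therefore compared between libraries on the sums, and between genes only on the RPKM of the main coding transcript, which is scaled per length. Of the possible reads of the Insl3 transcript at the read length of these libraries, 58.1% also occur in Jak3 transcripts, against 3.2% of Hsd3b6 reads in Hsd3b2 or Hsd3b3 and 0% for the other 7 members.

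Depth, estimated from the spacing of the lowest values, was 23800362 to 61645334 mapped reads in 27 libraries and could not be estimated for the knockout primary spermatocytes of mouse 613, whose values did not fall on such a spacing. Libraries fell into 4 sets by the transcripts that lack a value, of 14, 7, 6 and 1 libraries, which may mark separate quantification runs. Csmd1 itself was not lower in libraries labelled knockout (0.184 to 2.1 RPKM in whole testis) than in wildtype (0.058 to 1.25 RPKM). Transcript RPKM do not separate the deleted exon, so this level does not check the labels. The study reports that knockout testes lose reads over most exons of Csmd1 and gain reads over its last exons. Prm1, which packages sperm DNA in late spermatids, stood at 603, 1152 and 1922 RPKM in the whole testes of wildtype 178 and knockouts 214 and 273, and at 0.439 to 1.16 RPKM in those of wildtype 648 and knockouts 269, 286 and 308. Late spermatid RNA thus differed between whole testes within each genotype, and it was also near absent (Prm1 at most 2.14 RPKM) from every sorted library of mice 648 and 286. Age is given for 1 of these 7 mice, so its part in the split was not tested.

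The single ovary carried far more RNA of most steroidogenic genes than any testis. Star was at 81.6 RPKM in the ovary and at 0.442 to 1.22 RPKM over the 7 whole testes, 67.1 times the highest testis. Cyp11a1 reached 1087 RPKM against 0.392 to 3.2 RPKM, and Hsd3b1 reached 2868 RPKM against 0.66 to 3.59 RPKM. These were 340 and 799 times the highest testis. The receptor gene Lhcgr was at 151 RPKM in the ovary against at most 0.508 RPKM in a testis, Cyp19a1 at 45.7 against 0.37 RPKM, and Cyp17a1 at 129 against 11.3 RPKM, 297, 123 and 11.4 times the highest testis. Thus 6 of the 9 members were over 2 times the highest testis, where 30.5% of 23587 genes were. The remaining genes were Hsd17b3, Insl3 and Hsd3b6. Hsd17b3 was at 2.15 RPKM in the ovary, within the testis range of 0.688 to 3.03 RPKM, and Insl3 at 2.62 RPKM, within 1.88 to 15.2 RPKM. Jak3, which shares sequence with Insl3, was at 6.335 RPKM in the ovary, and its part in the Insl3 level was not tested. Hsd3b6 was at 0.581 RPKM in the ovary and at 0.899 to 4.22 RPKM in the testes, below every testis but not by more than 2-fold. No member was more than 2-fold below the lowest testis, where 15.1% of genes were. With 1 ovary these are descriptions with no replicate check. The ovary library also belongs to a different quantification set from every whole testis, so tissue and set cannot be told apart.

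**Figure D1:**
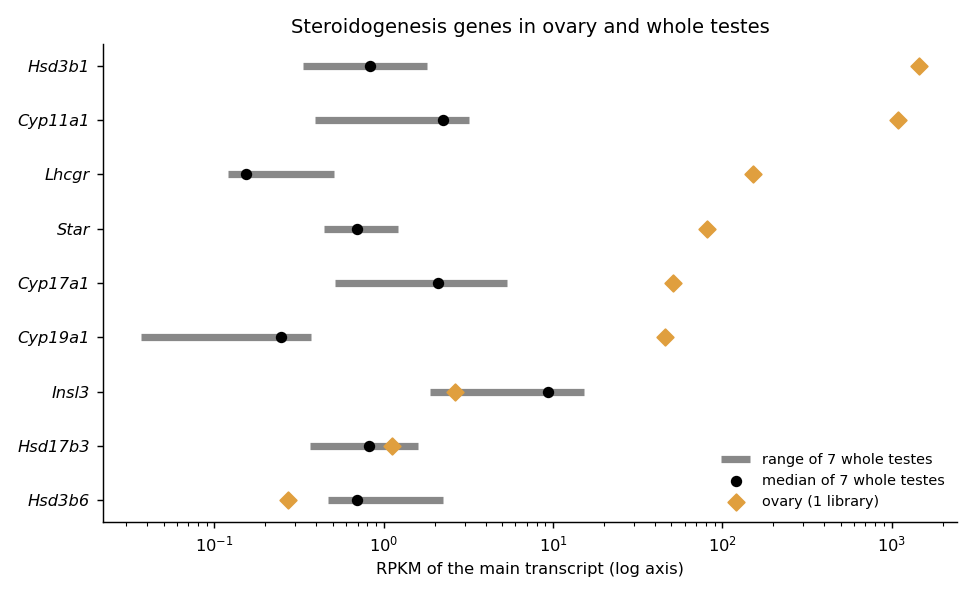
RPKM of the main transcript of each member on a log axis, with the ovary as a diamond, the range of 7 whole testes as a bar and their median as a point. Hsd3b1 (1443 RPKM) and Cyp11a1 (1087 RPKM) lead in the ovary, where Hsd3b6 (0.273 RPKM) is last, and 6 of 9 diamonds lie far to the right of the testis bars.

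Per length, the ovary ordered the genes as Hsd3b1 (1443 RPKM), Cyp11a1 (1087), Lhcgr (151), Star (81.6), Cyp17a1 (50.9), Cyp19a1 (45.7), Insl3 (2.62), Hsd17b3 (1.12) and Hsd3b6 (0.273). The whole testes ordered them by median as Insl3 (9.38 RPKM), Cyp11a1 (2.25), Cyp17a1 (2.1), Hsd3b1 (0.828), Hsd17b3 (0.817), Hsd3b6 (0.699), Star (0.691), Cyp19a1 (0.246) and Lhcgr (0.154). Among neighbours in the testis order the ranges of Star and Cyp19a1 did not overlap, and those of the other neighbouring genes did. Insl3 led in 6 of the 7 testes and Cyp17a1 in that of mouse 648. The ovary library also held markers of its own cell types. Granulosa genes summed to 2127 RPKM, with Foxl2 at 5.42 and Inha at 1457 RPKM. Inha, also counted among the Sertoli genes below, was at 5.53 to 51.2 RPKM in whole testes. The luteal genes Ptgfr and Akr1c18 were at 143 and 89.6 RPKM. The oocyte genes Zp3, Nlrp5 and Oosp1 were at 43.3, 34 and 24.1 RPKM, against at most 0.266, 2.55 and 0.084 RPKM in a whole testis. The oocyte gene Gdf9 went the other way, at 33 RPKM within the testis range of 8.25 to 34.8 RPKM.

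In whole testis the Leydig genes were present at low level in both genotypes, and none was called between them by the test over all genes. Cyp17a1 was at 5.56 and 9.86 RPKM in wildtype testes (mice 178 and 648) and at 7.16, 2.16, 11.3, 1.1 and 3.37 RPKM in knockouts (214, 269, 273, 286 and 308). Insl3 was at 10.3 and 2.99 RPKM in wildtype and at 9.38, 1.88, 15.2, 3.96 and 9.49 RPKM in knockout. For both genes the wildtype values lay within the knockout range. Cyp11a1 was at 2.25 and 0.392 RPKM in wildtype and at 2.37, 1.31, 3.2, 1.27 and 2.68 RPKM in knockout, with mouse 648 below every other testis. Hsd3b6 was at 0.975 and 2.44 RPKM in wildtype and at 1.36, 0.899, 1.42, 1.42 and 4.22 RPKM in knockout. Hsd17b3, the testosterone-forming enzyme, was at 1.06 and 0.688 RPKM in wildtype and at 1.68, 3.03, 2.02, 1.17 and 2.7 RPKM in knockout. It was the member whose groups did not overlap, with all 5 knockouts above both wildtypes.

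By limma on log2(RPKM + 0.1) the Hsd17b3 difference was 1.14 (SE 0.55, Benjamini-Hochberg adjusted p = 0.50 over 22776 genes). Its two-sided exact permutation p was 0.0476, the smallest that 2 against 5 testes allow, before any correction for 9 members. The other differences ran from -0.99 (Cyp17a1) to 0.98 (Cyp11a1), against a median of 0.39 over all genes, with adjusted p of 0.69 to 0.992. In this comparison limma called 0 of 9 members and 0% of genes, and 2493 genes, none of them a member, had an unadjusted p under 0.05. In bulk tissue, fewer Leydig cells and less RNA per Leydig cell cannot be told apart. Sertoli genes (summed 60.1 to 415 RPKM) and late spermatid RNA also varied between these testes, and their part in the spread, like that of age, was not tested.

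**Figure D2:**
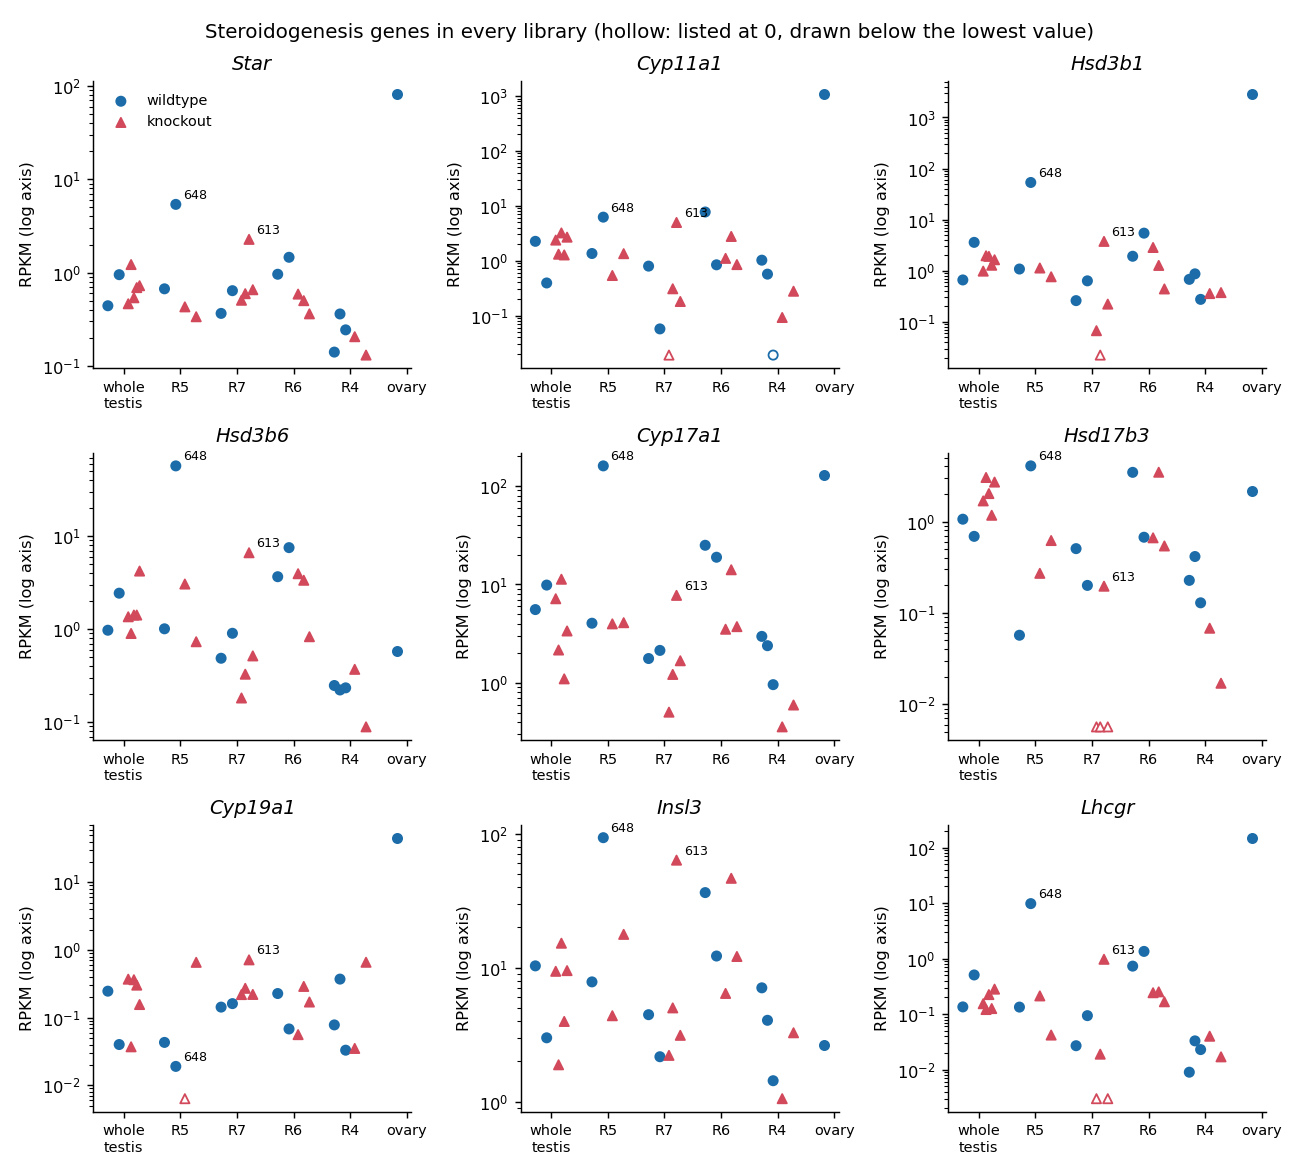
Summed RPKM of the 9 members (log axes) in every library, by sample type, with wildtype as blue circles, knockout as red triangles and values listed at 0 as hollow symbols. The spermatogonia of mouse 648 and the primary spermatocytes of mouse 613 are marked and stand above the other libraries of their gate for the Leydig genes, except Hsd17b3 of mouse 613, which at 0.196 RPKM lies below both wildtypes of its gate.

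Leydig RNA was not removed from every gate by the sort. Summed over the 8 members other than Cyp19a1, it was highest in the R6 gate in 4 of 5 mice with several gates, and in the R5 gate in the fifth. In wildtype mouse 178 the summed level was 79.7 RPKM in R6, against 16.2 in R5, 12.4 in R4 and 8.65 in R7, with 21.3 RPKM in the whole testis. In knockout mouse 544 it was 72.1 RPKM in R6, 25.6 in R5, 4.76 in R4 and 3.47 in R7. In knockout mouse 286, with no R7 library, it was 19.3 RPKM in R6, 14 in R5 and 2.54 in R4, with 11 RPKM in the whole testis. R6 was thus the highest gate in these mice and in knockout 550, where it was at 19 RPKM against 7.48 in R7. Wildtype mouse 648 had the highest value of all in R5, 389 RPKM, followed by 48.5 in R6, 6.83 in R7 and 3.3 in R4, with 21.4 RPKM in its whole testis. Insl3 made up 93.3 RPKM of that R5 sum, and in mouse 544 46.4 of 72.1 RPKM in R6 and 2.21 of 3.47 RPKM in R7. Since 58.1% of possible Insl3 reads also occur in Jak3, the sums may hold Jak3 reads, whose part was not tested.

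Set against the whole testis of the same mouse, R6 held 3.74 times the summed level in mouse 178, 2.27 times in 648 and 1.75 times in 286. R5 held 0.761, 18.2 and 1.27 times that level in the same mice, and R4 held 0.582, 0.154 and 0.231 times. R7 held 0.406 times in mouse 178, less than R4 there, and 0.319 times in 648. By this sum, both R4 and R7 held less Leydig RNA than the unsorted testis in every mouse with the gate and a whole testis. The secondary spermatocyte gate, R6, held more. By gene, R6 was above the whole testis for 8, 7 and 5 of 8 in mice 178, 648 and 286, with Star, Cyp11a1 and Hsd17b3 lower in R6 of mouse 286. Gene by gene, R6 was above R4 for 8 of 8 Leydig genes in each of mice 178, 648, 544 and 286. R6 was above R7 for 8 of 8 in mice 178 and 648 and for 7 of 8 in mice 544 and 550, where Star was the exception. R6 was above R5 for 8, 8 and 7 of 8 in mice 178, 544 and 286, and for 0 of 8 in mouse 648.

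**Figure D3:**
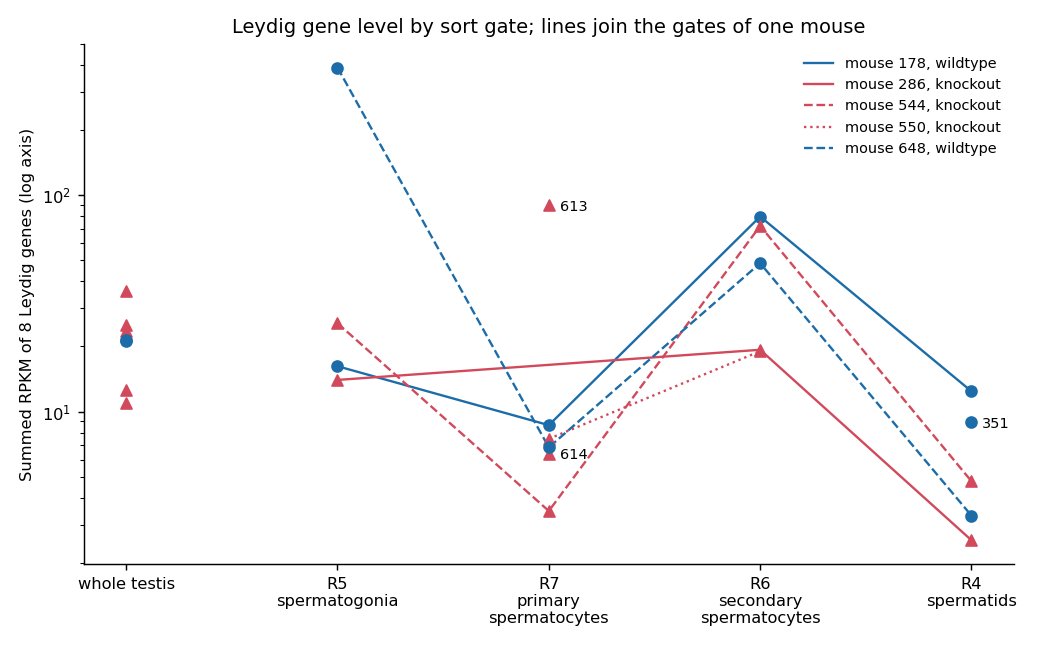
Summed RPKM of the 8 Leydig genes (log axis) in whole testis and in each sort gate, with lines joining the gates of 1 mouse (mouse 286 has no R7 library). R6 stands above R7 and R4 in every joined mouse, R5 reaches 389 RPKM in mouse 648, and R7 reaches 90 RPKM in mouse 613.

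Cyp17a1 and Insl3 are given in full. In R6 Cyp17a1 was at 25 and 18.9 RPKM in wildtypes 178 and 648 and at 3.51, 14.1 and 3.73 RPKM in knockouts 286, 544 and 550. In R4 it was at 2.97, 2.39 and 0.961 RPKM in wildtypes 178, 351 and 648 and at 0.358 and 0.597 RPKM in knockouts 286 and 544. All R6 values lay above all R4 values, the lowest in R6 (3.51 RPKM) next to the highest in R4 (2.97 RPKM), and in mouse 286 Cyp17a1 was the Leydig gene whose highest gate was R5 rather than R6. In R7 it ran from 0.505 to 2.14 RPKM in 5 libraries and stood at 7.75 RPKM in that of mouse 613, and in R5 it was at 4.04, 3.98 and 4.09 RPKM in mice 178, 286 and 544 and at 160 RPKM in mouse 648. Insl3 followed with 36.3, 12.2, 6.41, 46.4 and 12.1 RPKM in R6 and 7.06, 4.04, 1.43, 1.05 and 3.26 RPKM in R4, each in the order of mice given for Cyp17a1. Its ranges in R6 and R4 overlapped, through mouse 286 in R6 and mouse 178 in R4. Jak3 lay above Insl3 in R4 of mice 351, 648, 286 and 544 (4.39, 3.59, 4.67 and 5.87 RPKM). In R4 of mouse 178 (5.5 RPKM) and in every R6 library Jak3 lay below Insl3, and its part in these levels was not tested.

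Against the mean of the other gates in limma over the 20 sorted libraries, R4 was lower for 4 of 9 members, where 23.1% of 19049 genes were lower and 10.8% higher. Cyp17a1 differed by -2.51 on the log2 scale (SE 0.68, adjusted p = 0.0102, Benjamini-Hochberg), Hsd3b6 by -2.78 (SE 0.80, adjusted p = 0.0137), Star by -1.52 (SE 0.44, adjusted p = 0.0149) and Insl3 by -2.05 (SE 0.76, adjusted p = 0.0449). The median over all genes in this comparison was -0.35. Hsd3b6 stood in R4 at 0.248, 0.222, 0.234, 0.37 and 0.089 RPKM, below all 5 R6 libraries (3.67, 7.54, 3.95, 3.36 and 0.83 RPKM). Star, the cholesterol carrier, stood in R4 at 0.141, 0.361, 0.244, 0.206 and 0.131 RPKM and in R6 at 0.961, 1.46, 0.589, 0.501 and 0.362 RPKM, without overlap but with the highest R4 value next to the lowest R6 value. Permuting the gates within mice 178, 544 and 648, which have all 4, gave two-sided exact p-values of 0.0156 for Star (the smallest that the 64 arrangements allow), 0.0469 for Hsd3b6, 0.141 for Cyp17a1 and 0.203 for Insl3. The call of 4 members fell to 1 when mouse 286, 544 or 648 was left out, and was 3 without the R5 library of mouse 648.

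R6 was not called higher for any member, with 0% of genes called in either direction and 1742 genes at an unadjusted p under 0.05. The differences were positive for 8 of 9 members, with a median of 1.64 against 0.17 over all genes, and the largest was 2.13 for Hsd17b3 (SE 0.64, adjusted p = 0.536, exact permutation p = 0.0469). R5 was not called for any member either, where 27% of genes were higher and 13.3% lower. Its largest difference was 1.89 for Hsd3b6 (SE 0.85, adjusted p = 0.0849) and its lowest adjusted p was 0.0514, for Cyp17a1 at 1.85 (SE 0.73). R7 was called for 0 members, where 6.96% of genes were higher and 13.7% lower, and 7 of 9 differences were negative. Because the gates share animals, the fits were repeated with the mouse as a replicate block. The blocked fit called Cyp17a1, Hsd3b6 and Hsd3b1 higher in R5 (adjusted p = 0.0222, 0.0309 and 0.0406), Hsd3b1 lower in R7 (adjusted p = 0.0445) and 6 members lower in R4, adding Lhcgr (adjusted p = 0.0264) and Hsd17b3 (adjusted p = 0.0476). The R5 count also rose to 5 without mouse 178 and to 3 without mouse 613. The shares of all genes called in the blocked and leave-out fits are not given here, so these counts are not read as particular to the members. Whole testis against the mean of the gates called 0 members and 0.021% of genes.

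Other somatic cells were measured beside the Leydig genes in the same libraries, and their part in these differences was not tested. Stroma genes (Dcn, Pdgfra, Col1a1 and Lum) summed to 111, 162, 25 and 746 RPKM in the R5 libraries of mice 178, 286, 544 and 648, and to 9.15 to 117 RPKM in R6. Thus R5 of mouse 178 held more stroma RNA than its R6 (18.9 RPKM) and less Leydig RNA. Macrophage genes summed to 5.67 to 42.1 RPKM in R5, 5.48 to 11.4 RPKM in R6 and 1.57 to 4.75 RPKM in R4. Not all of them followed the sum. Of 5 macrophage genes, limma called 2 lower in R4 and 1, Adgre1, higher (1.0, SE 0.36, adjusted p = 0.0402). Over all genes 23.1% were lower and 10.8% higher there. Sertoli genes ran from 61.6 to 110 RPKM in R5, 17 to 118 RPKM in R6 and 5.35 to 44.4 RPKM in R4.

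The R5 library of mouse 648 held the most RNA of 8 members among the gates of its mouse, and more Cyp17a1 (160 RPKM) than the ovary (129 RPKM). It had 53.4 RPKM of Hsd3b1, 57.1 of Hsd3b6, 93.3 of Insl3, 9.8 of Lhcgr, 6.21 of Cyp11a1, 5.38 of Star and 4.06 of Hsd17b3. Each was above the other 3 R5 libraries, and Cyp19a1, at 0.019 RPKM, was not. Dcn, a stromal proteoglycan, was at 645 RPKM there and at 19.3 to 118 RPKM in the other R5 libraries, and macrophage genes summed to 42.1 RPKM against 5.67 to 11.7 RPKM. The spermatogonia genes of the fixed list summed to 615 RPKM in this library, within the 286 to 640 RPKM of R5 as a whole.

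The proportion of Cyp11a1 to Cyp17a1 differed between wildtype mice 178 and 648 by more than it did within either. The ratio of Cyp11a1 to Cyp17a1, per length, was 1.07 (95% Wilson interval 0.882 to 1.31) in the whole testis of mouse 178. In its gates the ratio was 0.833 in R5, 0.884 in R7, 0.719 in R6 and 0.715 in R4, and the R6 interval (0.658 to 0.785) alone lay wholly below that of the whole testis. In wildtype mouse 648 the whole testis gave 0.0934 (0.0682 to 0.127), R5 gave 0.0852 (0.0784 to 0.0927), R6 gave 0.092 (0.0758 to 0.112), R7 gave 0.0652 (0.029 to 0.146) and R4 gave 0, from 0 Cyp11a1 and 42 Cyp17a1 reads, with an upper bound of 0.0783. No interval of mouse 648 reached the lowest bound of mouse 178, 0.542. Side chain cleavage RNA was thus low relative to Cyp17a1 throughout mouse 648, over 5 libraries whose Cyp17a1 level spanned 0.961 to 160 RPKM. The intervals cover counting error of the estimated reads alone, and both mice are wildtype. Their libraries belong to different quantification sets, which cannot be told apart from the animal, and the age of mouse 648 is not given. Prm1 was at 0.094 to 0.691 RPKM in the libraries of mouse 648 and at 17.8 to 2579 RPKM in those of mouse 178. The part of late spermatid RNA in the difference was not tested. Not every ratio separated these mice. For Insl3 to Cyp17a1 the values did not overlap between them (given below), but the intervals did. Those of mouse 648 in R7 (1.79 to 3.42) and R4 (2.11 to 4.83) reached past the lowest bound of mouse 178, 3.12. Hsd3b6 to Hsd3b1 ran from 0.374 to 2.02 in mouse 178 and from 0.668 to 1.36 in mouse 648, with overlap. Hsd17b3 to Cyp17a1 also overlapped, at 0.0185 to 0.268 and 0.0297 to 0.154.

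In knockout mouse 544 the ratio of Cyp11a1 to Cyp17a1 was 0.711 in R5 and 0.468 in R6, 1.07 in R4, and in R7 0 Cyp11a1 against 14 Cyp17a1 reads gave an upper bound of 0.235. In knockout mouse 286 it was 2.45 (1.7 to 3.55) in the whole testis and 0.731 (0.564 to 0.948) in R6. In its R5 the ratio was 0.385 (0.269 to 0.556) and in its R4 it was 0.43 (0.213 to 0.952). Within mouse 286 the whole testis thus differed from each gate, and R5 from R6, beyond counting error. Hsd3b6 to Cyp17a1 in mouse 286 was 1.35 in the whole testis, 1.05 in R5, 1.33 in R6 and 0.794 in R4, against 0.0893 to 0.345 in mouse 178. Of these, the R4 interval (0.409 to 1.55) reached the highest bound of mouse 178, 0.464. The ratio of Insl3 to Cyp17a1 ran from 7.88 to 12.6 in mouse 544, from 3.38 to 4.95 in mouse 178 and from 0.712 to 3.19 in mouse 648. In mouse 648 it was higher in R7 (2.47) and R4 (3.19) than in R5 (1.28) and R6 (1.34), the gates with most Leydig RNA. Jak3, which shares sequence with Insl3, was at 5.29 RPKM in that R7 library and 3.59 in R4, above Insl3 itself (2.16 and 1.43 RPKM), and its part in this ratio was not tested. In R6 of mice 178 and 544 Insl3 (36.3 and 46.4 RPKM) exceeded Jak3 (11.1 and 11.6 RPKM).

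**Figure D4:**
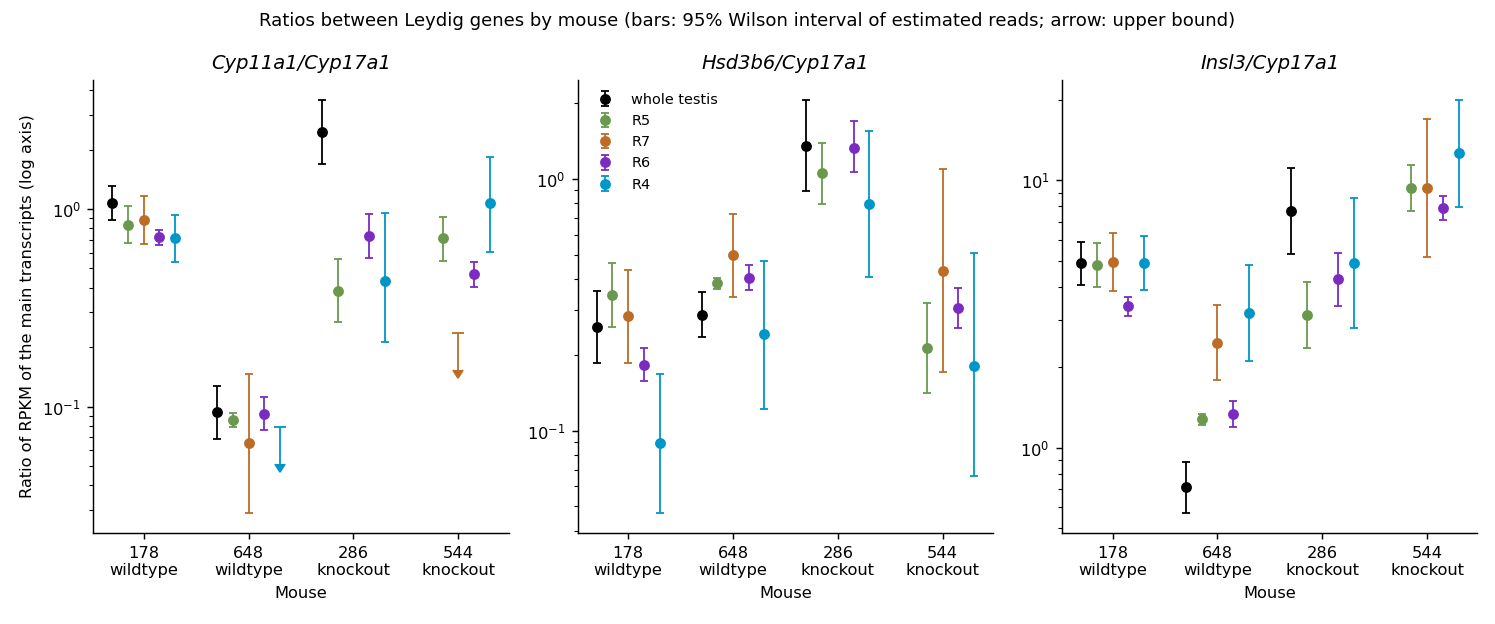
Ratios of RPKM between main transcripts (log axes) in the 4 mice with 3 or more gates, coloured by library, with 95% Wilson intervals of the estimated reads and arrows for ratios of 0 at their upper bound. Cyp11a1 to Cyp17a1 stays at or below 0.0934 in mouse 648 and at 0.715 to 1.07 in mouse 178.

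Aromatase stood apart from the Leydig genes. Across the 27 testis libraries, as a description, each of the 8 Leydig genes had a Pearson correlation of 0.69 to 0.92 with the mean of the other Leydig genes on the log2 scale, and 0.62 to 0.88 over 26 libraries without R5 of mouse 648. For Cyp19a1 the same value was -0.08, and its correlation with Prm1 was 0.66 and with Tnp2, another late spermatid gene, 0.71. Libraries of 1 mouse share an animal, and low values share counting error. In R5 Cyp19a1 was at 0.656 RPKM in mouse 544, whose R5 library held 1402 RPKM of Prm1, and at 0.043, 0.019 and 0 RPKM in mice 178, 648 and 286, with 92.9, 0.094 and 0.348 RPKM of Prm1. In R4 it was at 0.658 RPKM in mouse 544 and 0.371 in mouse 351, but at 0.078 in mouse 178 despite 2579 RPKM of Prm1. In whole testis it was at 0.246, 0.37 and 0.363 RPKM in mice 178, 214 and 273 and at 0.04, 0.037, 0.302 and 0.156 RPKM in mice 648, 269, 286 and 308. Mouse 286, with 1.16 RPKM of Prm1, was thus as high as the testes with late spermatids. No gate was called for Cyp19a1, whose differences ran from -0.55 (R5) to 0.49 (R7).

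**Figure D5:**
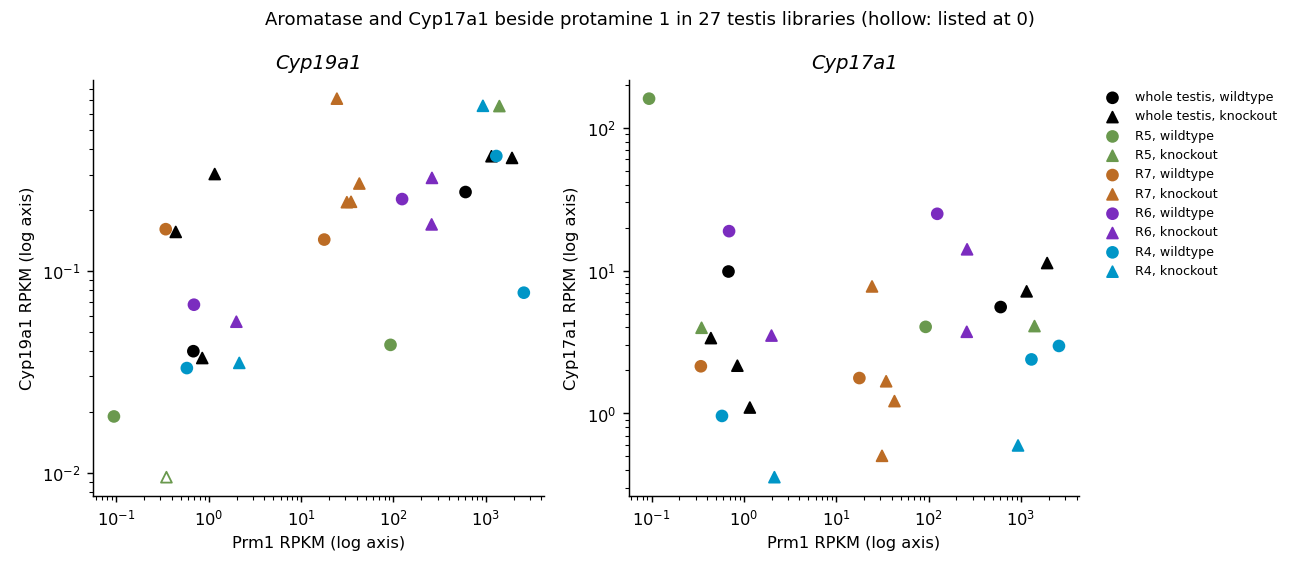
RPKM of Cyp19a1 and of Cyp17a1 against Prm1 in 27 testis libraries (log axes), by sample type and genotype. Cyp19a1 reaches 0.656 and 0.658 RPKM in libraries of mouse 544 rich in Prm1, while the highest Cyp17a1 value, 160 RPKM, is in the library with the least Prm1, 0.094 RPKM.

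The genes most like the Leydig members were taken as the 10 non-members with the highest Pearson correlation with their mean standardised level, over 27 testis libraries and 13285 genes with a mean of at least 1 RPKM. Among them were Vcam1 (0.89), Fxyd1 (0.87), Fosb and Prlr (both 0.86), Btg2, Esr1 and Trf (all 0.85), and Akr1cl and Ephx1 (both 0.84). Prlr, the prolactin receptor, was at 177 RPKM in R5 of mouse 648, 13 RPKM in R6 and 0.633 RPKM in R4 of mouse 178, and 789 RPKM in the ovary. Akr1cl, an aldo-keto reductase, was at 2812 RPKM in the ovary and 26.9 RPKM in R5 of mouse 648. Fosb, an immediate early gene, was at 1.49 RPKM in the ovary and 93.5 RPKM in that R5 library.

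The other genes of the pathway are read against the shares of all genes called, 27% higher and 13.3% lower in R5 and 10.8% higher and 23.1% lower in R4, and the counts below were not tested against them. Of 12 genes for cholesterol supply and electron transfer, 5 were higher in R5 and 6 lower in R4. Npc1, which releases lysosomal cholesterol, was higher in R5 by 3.06 (SE 0.51, adjusted p = 0.000307, limma) and lower in R4 by -2.29 (SE 0.48). Npc1 stood in R5 at 7.05, 18.4, 13.2 and 3.74 RPKM, above all other sorted libraries except that of mouse 613 (5.5 RPKM). Por, the electron donor of CYP17A1 and CYP19A1, was higher in R5 by 1.80 (SE 0.38), and Fdxr, the reductase that feeds CYP11A1, was lower in R4 by -1.31 (SE 0.38). Of 14 genes of cholesterol synthesis, 6 were higher in R5 and 1, Fdft1 (squalene synthase, named after its value was seen), lower, and 4 were lower in R4, led by Dhcr7 in R5 (3.62, SE 0.49) and by Mvd in R4 (-1.94, SE 0.39). R5 also held the highest spermatogonia genes, so these differences sit beside a change of germ cell type whose part was not tested.

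Of 10 transcriptional and hormonal regulators, 6 were higher in R5, 5 lower in R7 (against 13.7% of all genes) and 2 lower and 1 higher in R4, the last being Insr, the insulin receptor (1.25, SE 0.40). Nr5a1, the nuclear receptor that drives steroidogenic genes, was higher in R5 by 1.66 (SE 0.57, adjusted p = 0.0282, limma). It stood in R5 at 4.48, 7.63, 2.33 and 3.87 RPKM in mice 178, 648, 286 and 544. In R6 it stood at 5.48, 2.18, 7.91 and 1.73 RPKM in the same mice and at 0.996 RPKM in mouse 550. R6 was thus above R5 in mice 178 and 286 and below it in mice 648 and 544. Gata4, active in Sertoli and Leydig cells, was higher in R5 by 2.51 (SE 0.60) and lower in R4 by -1.61 (SE 0.56). In mouse 286 Gata4 was higher in R6 (12 RPKM) than in R5 (8.5 RPKM), unlike in mice 178, 648 and 544. Of 11 tested genes among 16 further steroid enzymes, 4 were higher in R5 and 3 lower in R4, with Hsd17b7 at both (3.58, SE 0.46, and -2.48, SE 0.43). Over all genes 27% were higher in R5 and 23.1% lower in R4, and the counts of this paragraph were not tested against such shares. Of 8 tested hormone receptors, 2 were lower in R5, and 2 were higher and 1 lower in R4. The one lower in R4 was Prlr (-3.13, SE 0.98, adjusted p = 0.0212, limma), and those higher were Rxfp2, the INSL3 receptor (1.07, SE 0.35), and Gnrhr (1.38, SE 0.50). Rxfp2 was at 4.85 to 12.6 RPKM in R4 and 0.554 to 4.91 RPKM in R5, opposite to its ligand Insl3 in mouse 648. None of these lists had a gene called in whole testis between genotypes.

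Within the gates, limma called no member between knockout and wildtype, with 0% of 19049 genes called in each of R5, R7, R6 and R4 and 1018, 1670, 549 and 139 genes at an unadjusted p under 0.05. In R5, 8 of 9 members were lower in knockout, by up to -2.95 for Hsd3b1 (SE 1.56, adjusted p = 0.931), and the wildtype side included the R5 library of mouse 648. In R6, 8 of 9 were lower in knockout, with a median of -1.16 against 0.21 over all genes. Lhcgr there was at 0.733 and 1.35 RPKM in wildtype and 0.243, 0.252 and 0.167 RPKM in knockout, without overlap, at an exact permutation p of 0.1, the smallest that 2 against 3 allow. In R4 7 of 9 were lower in knockout, and in R7 3 of 9. A term for genotype by gate called 0 genes, and the adjusted p of each member was 1. The smallest exact permutation p is 0.333 in R5, 0.0667 in R7 and 0.1 in R6 and R4, so no gate can give a p under 0.05 for a single gene by this test.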

How the data were processed

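Polyadenylated RNA of 28 libraries was sequenced by the authors as paired reads. Per the methods, reads were mapped to the Ensembl release 72 mouse reference with TopHat2 and summarized as RPKM. PEER correction, quantile normalization and a PoissonSeq test are described for later steps. The deposited values are RPKM per transcript, and the methods do not state at which step they were taken. They were read as values before those later steps because they fell on a spacing of reads in 27 libraries. Those of mouse 613 did not, so their step is unknown. Of 94480 transcript rows, 90432 (95.7%) matched GENCODE M21 identifiers on GRCm38 and were summed to 37206 genes, and 4048 did not match and were left out. Positions are those of that annotation. RPKM are not counts, so no count model was fitted. Differences were tested with limma 3.58.1 (R 4.3.3; trended empirical Bayes) on log2(RPKM + 0.1), a scale that understates changes of low genes, leaving out genes whose mean in the fit fell under 0.1 RPKM, with Benjamini-Hochberg adjustment over all genes and a threshold of 0.05. Separate fits covered 7 whole testes, 20 sorted libraries and 27 testis libraries. Single members were also tested by exact permutation in scipy 1.17.1. The script was tested on simulated data with known changes. Gates were compared with the mean of the other gates over both genotypes.

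Where values were whole multiples of what 1 read is worth (93.1% to 94.6% within 0.06 of a whole number in 27 libraries), the spacing gave depth and estimated reads. Reads are not independent molecules, so intervals cover counting error only.

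The members, gene lists and tests were chosen with earlier results of these data known. Named genes were all 9 members, up to 4 genes of each list with the smallest adjusted p where called, the 10 most alike genes, and Prm1 and Tnp2. Some genes that this rule names are not reported here. Samples with the same mouse number are the same animal. Deviations from group means correlated at a median of 0.48 (22 pairs, -0.15 to 0.70) between libraries of 1 mouse and -0.05 (151 pairs, -0.70 to 0.67) otherwise. Replicates of a group are different mice, so limma p-values between the whole testes of each genotype measure the spread between animals. The main fits with sorted libraries took all libraries as independent although gates share mice. Their p-values for gates thus leave out the pairing by mouse, which the fit with the mouse as a block takes in. Alternatives covered the pseudocount, the filter, quantile normalization, the highest transcript alone, each mouse left out, the mouse as a block and the quantification set as a term. Figures were drawn with matplotlib 3.10.9.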

Additional observations from a re-analysis of the deposited data

Results flagged for a closer look

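The knockout primary spermatocytes of mouse 613 lay farther from the other 3 libraries of their group than a range test allows for all 9 members. For Hsd17b3 any value above 0 would have met that limit, since the others are listed at 0, and its main transcript is at 0 in mouse 613 too. Star was at 2.27 RPKM, Cyp11a1 at 4.96, Hsd3b1 at 3.75, Hsd3b6 at 6.64 and Cyp17a1 at 7.75 RPKM. The main transcript of Hsd3b1 is at 0 there as well, so its sum rests on the other transcript row. For Hsd3b6 the main transcript alone is at 6.64 RPKM in mouse 613, whereas its sum is 1.88 times the main transcript over the libraries. These sums are thus built unlike those of the other libraries. Insl3 was at 63.4, Lhcgr at 0.973, Hsd17b3 at 0.196 and Cyp19a1 at 0.714 RPKM. In the other 3 libraries Insl3 ran from 2.21 to 5 RPKM, Cyp17a1 from 0.505 to 1.68 RPKM and Cyp11a1 from 0 to 0.307 RPKM, and Hsd17b3 was listed at 0. Stroma genes summed to 39.3 RPKM and endothelial genes to 20.7 RPKM in that library. It is also the library with 12787 transcripts without a value and no estimate of depth, and the part of either in its levels was not tested.

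In whole testis, Hsd3b6 of knockout mouse 308 was at 4.22 RPKM, against 0.899 to 1.42 RPKM in the other 4 knockouts. The same testis had the highest sum of Sertoli genes, 415 RPKM, and of stroma genes, 85.8 RPKM. Chance gives about 1 such result in 20. The 18 tests were 9 members in each of 2 groups of libraries, so tests within a group are not independent.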

How the results depend on the processing

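Of the counts of members called, those between genotypes and between whole testis and gates remained at 0 under every alternative run. The 4 members lower in R4 became 1 with a pseudocount of 1 RPKM, and 1 to 4 with a mouse left out, the lowest without mouse 286, 544 or 648. The count of 0 in R5 became 1 with a filter at a mean of 1 RPKM, 2 with the highest transcript alone, 3 with the quantification set as a term, and 0 to 5 with a mouse left out (5 without 178, 3 without 613). The count of 0 in R7 became 1 with the highest transcript alone, 3 with the set as a term, and 0 to 1 with a mouse left out (1 without 613). With the mouse as a replicate block, 3 members were called in R5 and 1 in R7, and this paired fit changed no other count by more than 1.5 times. In the main fit 27% of all genes were higher in R5, 13.7% lower in R7 and 23.1% lower in R4. The shares of all genes called under the alternatives are not given here, so these counts are not read as particular to the members. With quantile normalization, 1 member, Hsd3b6, was more than 2-fold lower in the ovary. No direction reversed. Without the R5 library of mouse 648, a choice made after seeing the data, Insl3 lost its call in R4 (-1.76) and Cyp17a1, Hsd3b6 and Star kept theirs. The causes were not tested. The main transcript of Hsd17b3 rests on 22 to 81 estimated reads in whole testes, and 1 ovary and 4 to 6 libraries per gate limit every comparison.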
